A study of Mus musculus with 15 samples.

Results

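The genes described are 9 regulators of chromatin and transcription: the histone acetyltransferase Crebbp, the acetyltransferase-complex reader Ing4, the histone methyltransferase Setd2, the Polycomb subunit Suz12, the histone demethylases Kdm5b and Kdm7a, the DNA methyltransferase Dnmt1, the corepressor Ncor1 and the coactivator Ncoa2. They were taken by symbol from the 55490 genes of the deposited table, where each had 1 row, and all 9 are annotated as protein-coding. They were chosen by their levels across the stages and genotypes of these same libraries, with earlier results in view. Their levels are therefore given as a description, and the p-values of a fit over all genes that are printed beside them support nothing about these 9 in particular.

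Ribosome-bound RNA fragments were sequenced from pooled eggs and embryos of B6D2F1 female mice that were either Eif4e1b knockout (KO) or Eif4e1b heterozygous (Het). Eif4e1b is a germ-cell relative of the cap-binding translation factor eIF4E. The Het controls share 1 more feature with the KO females. Both express HA-tagged Rpl22, part of the large ribosomal subunit, which served to pull down ribosomes after RNase I digestion. The labels name neither the promoter that drives the tagged protein nor the age of the females or the genotype of the males. The groups were mature M2 eggs, arrested in the second meiotic division (2 Het and 2 KO libraries), PN5 zygotes, in which the parental genomes still lie in separate pronuclei (3 Het and 3 KO), and early 2-cell embryos (3 Het and 2 KO). Each library was made from a pool of about 200 cells at the first 2 stages, and from about 100 embryos at the early 2-cell stage. The labels do not say that libraries of a group came from separate animals, so the spread between them may be technical.

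In the egg, chromatin enzymes and their cofactors are made from mRNAs stored during oocyte growth, and they act on both parental genomes before the embryo transcribes its own. Acetyltransferases such as CREBBP mark active promoters and enhancers, and deacetylase complexes built on NCOR1 remove such marks. Methyltransferases and demethylases set histone lysine methylation, and DNMT1 copies DNA methylation onto newly replicated strands. In mouse, oocyte SETD2 and the maternal stores of DNMT1 are known to be needed for normal epigenomes in oocytes and embryos.

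Levels are given as the share of a library's counts in protein-coding genes, in percent. Those counts numbered 5997 to 47399 per library in eggs and zygotes and 1059 to 7795 in early 2-cell embryos, of library totals of 93222 to 1201146. They made up 1.14% to 5.10% of a library in eggs and zygotes and 0.696% to 4.57% in early 2-cell embryos. The limit that a count of 0 allows, 3 counts, came to 0.00633% to 0.05003% in single egg or zygote libraries and to 0.0385% to 0.283% in single early 2-cell libraries. Such limits and the intervals below cover counting error only. Eif4e1b itself was listed at 0 in all 15 libraries, so it could not check the genotype labels. Of 14 oocyte markers 7 were at 0 throughout, among them the zona pellucida genes Zp1, Zp2 and Zp3, and Actb had 9 counts in 2 libraries. Lists of 2-cell markers and of blood and sperm markers had 11 counts and 1 count in all. A gene listed at 0 is therefore not shown to be untranslated. As the libraries are pools, fewer cells with an mRNA and less of it per cell cannot be told apart. Counts were not divided by transcript length, so shares of different genes order them by counts taken and not by ribosome density.

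Together the 9 genes had 3114 of 255766 protein-coding counts over the 15 libraries, or 1.22%. Crebbp had 1141 of them, Ncor1 699, Dnmt1 442, Suz12 327, Setd2 273, Kdm7a 79, Ncoa2 54, Ing4 53 and Kdm5b 46. Crebbp, Dnmt1 and Setd2 were listed in 15, 14 and 13 libraries. Suz12, Ncor1, Ing4 and Kdm7a were listed in 2, 6, 5 and 7, with counts in some libraries and none in others of like depth. Kdm5b and Ncoa2 were low and listed in 10 libraries each. No gene whose span overlaps one of the 9 in the RefSeq annotation had a count in any library (6 such genes). Reads shared with related genes elsewhere were not examined.

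**Figure D1:**
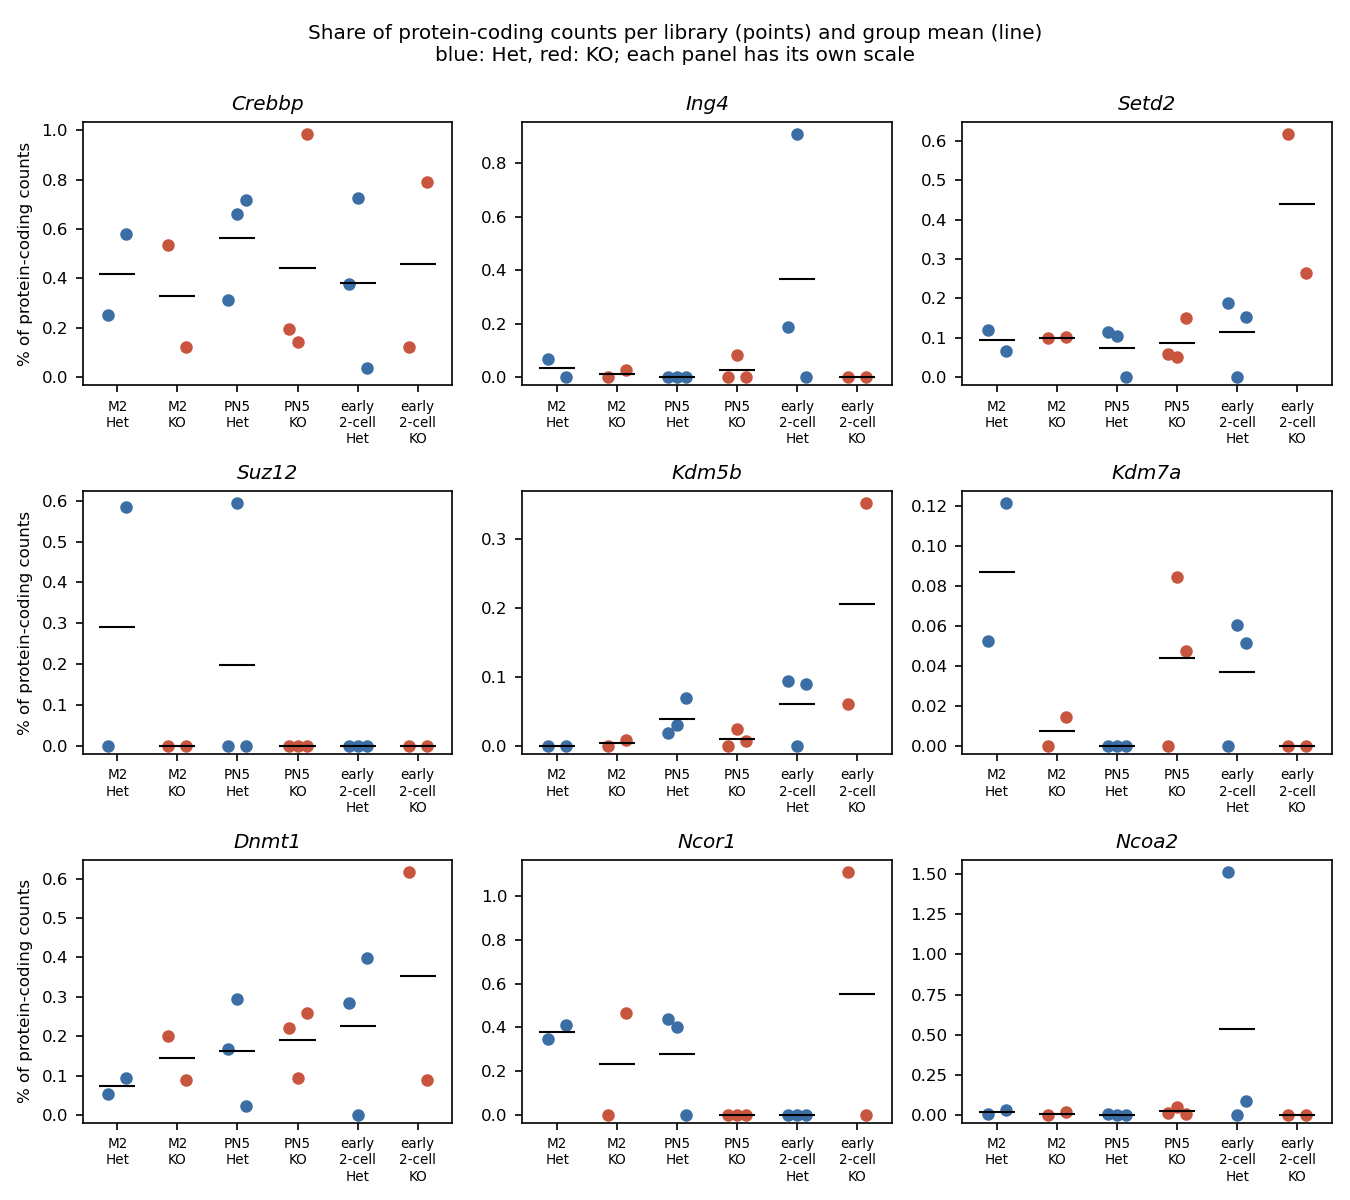
Share of protein-coding counts (%, vertical axes, each panel with its own scale) of the 9 genes in each library, by stage and genotype. Points are libraries (blue Het, red KO) and lines are group means; Crebbp has a count in every library, while Suz12 lies at 0.584% and 0.593% in 2 Het libraries and at 0 in the other 13.

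CREBBP (CBP) is a histone acetyltransferase and coactivator that many transcription factors bind. Its gene (ENSMUSG00000022521, chromosome 16, 4081334 to 4213957 on GRCm38.p6) had counts in all 15 libraries, as did 29 of the 70 protein-coding genes with 500 counts or more. In M2 eggs its share was 0.254% and 0.580% in the Het libraries and 0.534% and 0.122% in the KO libraries. In PN5 zygotes it was 0.314%, 0.663% and 0.720% in Het and 0.195%, 0.144% and 0.985% in KO. The early 2-cell shares were 0.378%, 0.725% and 0.0385% in Het and 0.123% and 0.792% in KO. Het and KO overlapped at every stage. The highest value, in PN5 KO replicate 3, rests on 394 counts (exact 95% binomial interval 0.891% to 1.09%). Its interval lies above those of the other PN5 KO libraries, 0.132% to 0.278% and 0.0839% to 0.230%.

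As a mean, Crebbp was highest in PN5 Het zygotes, at 0.566 ± 0.220% (SD, n = 3). Next came early 2-cell KO embryos at 0.458 ± 0.473% (n = 2), PN5 KO zygotes at 0.441 ± 0.472% (n = 3) and M2 Het eggs at 0.417 ± 0.231% (n = 2). Lowest were early 2-cell Het embryos at 0.380 ± 0.343% (n = 3) and M2 KO eggs at 0.328 ± 0.291% (n = 2). No step between neighbours in this order was larger than the SD of either. In edgeR's quasi-likelihood test the log2 difference of KO from Het was -0.74 (SE 1.51) for M2, -0.27 (SE 1.22) for PN5 and -0.18 (SE 1.44) for the early 2-cell stage, with an adjusted p of 1 at each stage. By mean share the early 2-cell stage went the other way, with KO 1.20 times Het. Without PN5 KO replicate 3 the PN5 KO mean is 0.169% and the log2 difference -1.98 (adjusted p = 0.926).

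ING4 binds trimethylated lysine 4 of histone H3 and brings an acetyltransferase complex to it. Ing4 (ENSMUSG00000030330, chromosome 6, 125039848 to 125049265) had 14 counts in M2 Het replicate 1, 12 in M2 KO replicate 2, 10 in PN5 KO replicate 2, and 2 and 15 in early 2-cell Het replicates 1 and 2. It was at 0 in the other 10 libraries, among them all PN5 Het and both early 2-cell KO libraries. Its share ran up to 0.906% in early 2-cell Het replicate 2 (15 of 1655 counts, interval 0.508% to 1.49%) and stayed at 0.0847% or less in eggs and zygotes. In early 2-cell embryos the Het mean of 0.365% was at least 3.36-fold above KO, by 3 counts over the KO group, but Het replicate 3, the deepest early 2-cell library, also had none. Without Het replicate 2 the Het mean of 0.0944% lies under the KO floor, and without KO replicate 1 or 2 the bound is 1.38 or 1.98. At its overall share PN5 KO replicate 3, the deepest library without it, would have held 8.29 counts.

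SETD2 trimethylates lysine 36 of histone H3 along transcribed genes. Setd2 (ENSMUSG00000044791, chromosome 9, 110532500 to 110618633) was the most even of the 9 across libraries, and 12.4% of the 241 protein-coding genes with at least 100 and under 500 counts were more even by their dispersion. Its share was 0.120% and 0.0674% in M2 Het, 0.100% and 0.101% in M2 KO, 0.114%, 0.105% and 0 in PN5 Het, and 0.0585%, 0.0508% and 0.150% in PN5 KO. At the early 2-cell stage it was 0.189%, 0 and 0.154% in Het and 0.616% and 0.264% in KO. By this share both KO libraries there lay above all 3 Het libraries, as they did for 7.88% of the 495 tested genes.

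The early 2-cell values of Setd2 rest on 2, 0 and 12 counts in Het and 10 and 3 in KO. The KO mean of 0.440 ± 0.249% (n = 2) was 3.85 times the Het mean of 0.114 ± 0.100% (n = 3), and the log2 difference was 1.62 (SE 1.55, adjusted p = 1 by edgeR). The ratio was 2.31 without KO replicate 1, and from 2.57 (without Het replicate 2) to 5.72 (without Het replicate 1) when another library was left out. The intervals of the KO libraries, 0.296% to 1.13% and 0.0545% to 0.770%, both overlap with that of Het replicate 1, 0.0229% to 0.681%, and that of KO replicate 1 lies above that of Het replicate 3, 0.0796% to 0.269%. Both early 2-cell KO libraries also lay above the 3 PN5 KO libraries, a position shared by 14.5% of tested genes. As a share of all counts neither position of Setd2 held. On that scale early 2-cell KO replicate 2 was at 0.00311%, below early 2-cell Het replicate 3 at 0.00703% and PN5 KO replicate 3 at 0.00673%.

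SUZ12 is a core subunit of Polycomb repressive complex 2, which trimethylates lysine 27 of histone H3. Suz12 (ENSMUSG00000017548, chromosome 11, 79993106 to 80034123) had 130 counts in M2 Het replicate 2 and 197 in PN5 Het replicate 2, and none in the other 13 libraries. Its share was nearly the same where it was present, 0.584% (interval 0.488% to 0.693%) and 0.593% (0.514% to 0.682%). At its overall share of 0.128% counting error alone would have put it in 14.3 of 15 libraries, and M2 KO replicate 2 would have held 60.6 counts. Of 241 genes of like total, 1.66% were listed in fewer libraries.

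KO libraries never listed Suz12, but neither did 1 of 2 M2 Het, 2 of 3 PN5 Het and all 3 early 2-cell Het libraries. The M2 Het mean was at least 52.0-fold and the PN5 Het mean at least 44.3-fold above the floor of 3 counts over the KO group, each on 1 library, and the edgeR adjusted p was 1 and 0.696. Without that library the Het group is at 0 as well, and without M2 KO replicate 2 or PN5 KO replicate 3 the bounds are 5.84 and 17.9. The other subunits were uneven too. Ezh2, the catalytic subunit, had 150 counts, all in PN5 KO replicate 3, where Suz12 was at 0, the histone binder Rbbp7 had 71 counts in 4 libraries and Eed 22 in 5.

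KDM5B removes methyl groups from lysine 4 of histone H3. Kdm5b (ENSMUSG00000042207, chromosome 1, 134560178 to 134632878) was low, with at most 10 counts in a library. In M2 eggs it had 0 and 0 counts in Het and 0 and 4 in KO. In PN5 zygotes it had 7, 10 and 6 counts in Het (0.0190%, 0.0301% and 0.0697%) and 0, 3 and 3 in KO (0, 0.0254% and 0.00750%). In early 2-cell embryos it had 1, 0 and 7 counts in Het and 1 and 4 in KO, with shares up to 0.352%.

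In Het, all 3 PN5 libraries lay above both M2 libraries for Kdm5b, as for 7.47% of tested genes. The PN5 Het mean of 0.0396 ± 0.0266% (n = 3) was at least 5.69-fold above the floor of the M2 Het group, with an adjusted p of 0.859 by edgeR. That bound was 3.53 without PN5 Het replicate 3, and 2.94 or 2.76 without M2 Het replicate 1 or 2. In PN5 zygotes the Het mean was 3.61 times the KO mean of 0.0110 ± 0.0131% (n = 3, adjusted p = 1), and the KO library at 0.0254% lay within the Het range. The ratio was 10.6 without KO replicate 2, 2.41 without KO replicate 1 and 2.24 without Het replicate 3. In KO, both early 2-cell libraries lay above all PN5 libraries, again a position that 14.5% of tested genes share. It rests on 1 of 1623 counts in early 2-cell KO replicate 1 and 4 of 1136 in replicate 2. In replicate 1 a single count makes 0.0616%, above the highest PN5 KO share of 0.0254%. Its interval, 0.00156% to 0.343%, overlaps those of all 3 PN5 KO libraries. The interval of replicate 2, 0.096% to 0.899%, lies above them.

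KDM7A removes methyl groups from lysines 9 and 27 of histone H3. Kdm7a (ENSMUSG00000042599, chromosome 6, 39136620 to 39206773) had 11 and 27 counts in M2 Het (0.0526% and 0.121%) and 0 and 7 in M2 KO (0 and 0.0148%). The 2 genotypes did not overlap in M2 eggs, with KO lower, as for 11.9% of tested genes. In PN5 zygotes it was at 0 in all 3 Het libraries and had 0, 10 and 19 counts in KO (0, 0.0847% and 0.0475%). The early 2-cell libraries had 0, 1 and 4 counts in Het and none in KO.

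The genotype with more Kdm7a thus differed between M2 eggs, where the Het mean of 0.0870 ± 0.0486% (n = 2) was 11.8 times that of KO, and PN5 zygotes, where the KO mean of 0.0441 ± 0.0424% (n = 3) was at least 11.6-fold above the Het floor. The difference between the KO effects of these stages had an adjusted p of 0.848 in edgeR's test, where 0 of 495 genes passed and 26 had an unadjusted p under 0.05. In Het the difference between M2 eggs and PN5 zygotes, at least 22.8-fold with no overlap (10.3% of tested genes), had an adjusted p of 0.859. The M2 ratio was 5.89 without KO replicate 1, whose 0 of 5997 counts allows up to 0.05003%, and at least 1.74 without KO replicate 2. It was 7.13 without M2 Het replicate 2. The PN5 bound was 6.23 without KO replicate 2, and 6.14 or 6.69 without Het replicate 1 or 2. The bound between eggs and zygotes in Het was 12.1 or 13.2 without PN5 Het replicate 1 or 2, and 13.8 without M2 Het replicate 2. Markers of cumulus and granulosa cells, the follicle cells around the egg, were set beside these groups. Their summed share overlapped between the M2 genotypes. It did not overlap between the PN5 genotypes or between M2 Het and PN5 Het. Of 14 such genes 6 had a count, and 8, Amh and Fshr among them, were at 0. Their summed share was 0.0404% to 0.765% in M2 Het, 0 to 0.116% in M2 KO, 0 to 0.0298% in PN5 Het and 0.0847% to 0.888% in PN5 KO, and Cyp11a1 made up 561 of their 650 counts. In PN5 KO replicates 1, 2 and 3 this summed share was 0.318%, 0.0847% and 0.888%, beside Kdm7a shares of 0, 0.0847% and 0.0475%. The markers' part in the Kdm7a levels was not tested.

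DNMT1 is the maintenance DNA methyltransferase. Dnmt1 (ENSMUSG00000004099, chromosome 9, 20907206 to 20959888) was listed in 14 libraries, and 82.6% of the genes of like total were listed in fewer. In M2 eggs its share was 0.0526% and 0.0943% in Het and 0.200% and 0.0886% in KO. In PN5 zygotes it was 0.168%, 0.295% and 0.0232% in Het and 0.221%, 0.0931% and 0.260% in KO. Early 2-cell libraries had 0.283%, 0 and 0.398% in Het and 0.616% and 0.0880% in KO. The genotypes overlapped at each stage.

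The Het means of Dnmt1 went from 0.0735 ± 0.0295% in M2 Het (n = 2) to 0.162 ± 0.136% in PN5 Het (n = 3) and 0.227 ± 0.205% in early 2-cell Het (n = 3), and the KO means from 0.144 ± 0.0788% (n = 2) to 0.191 ± 0.0873% (n = 3) and 0.352 ± 0.373% (n = 2). No step between neighbours exceeded the SD of the higher group, and the smallest adjusted p of these steps in edgeR's test was 0.651. The step from M2 to PN5 in KO turned without M2 KO replicate 2. That from PN5 to early 2-cell embryos turned without replicate 3 of either group in Het, and without early 2-cell KO replicate 1 in KO. On the scale of edgeR's test, library totals scaled by TMM factors, the step from PN5 to early 2-cell embryos was the other way. It was -0.90 (SE 1.31) in Het and -0.74 (SE 1.51) in KO on the log2 scale. As a mean share of all counts, without TMM factors, Dnmt1 rose in Het from 0.00513% to 0.00671%. In KO that mean fell from 0.00666% to 0.00583%. KO was above Het as a mean at each of the 3 stages, by 1.96, 1.18 and 1.55 times, with an adjusted p of 1 each time. The direction turned in zygotes without KO replicate 3 or Het replicate 3, and in early 2-cell embryos without KO replicate 1, where the KO share is then 0.0880%, below the Het mean. In M2 eggs the ratio was 1.21 without KO replicate 1. Of other DNA methylation genes, Dnmt3a, Dnmt3b, Dnmt3l and Uhrf1 were at 0 in all libraries, as were most protein-coding genes. The dioxygenases Tet3 and Tet2, which oxidise methylcytosine, had 46 and 21 counts.

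NCOR1 is a corepressor that holds histone deacetylase 3 on nuclear receptors and other factors. Ncor1 (ENSMUSG00000018501, chromosome 11, 62315663 to 62457414) was either listed at 0 or at much the same level in eggs and zygotes. It took 0.349% and 0.413% in M2 Het, 0 and 0.466% in M2 KO, 0.439%, 0.401% and 0 in PN5 Het, and 0 in all 3 PN5 KO libraries. In early 2-cell embryos it was at 0 in all 3 Het libraries and at 1.11% (18 counts, interval 0.659% to 1.75%) and 0 in KO. PN5 KO replicate 3, with 39997 protein-coding counts, would have held 109 counts of Ncor1 at the overall share of 0.273% and had none, which allows up to 0.00750% there.

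In PN5 zygotes the Ncor1 mean of Het was at least 62.7-fold above the KO floor (295 against 0 counts, adjusted p = 0.696 by edgeR, 0.0869 to 1 over the alternatives). The groups still touched at 0, since PN5 Het replicate 3 had none in 8614 counts, which allows up to 0.0348%. Without PN5 KO replicate 3 the bound is 25.4. In early 2-cell embryos the direction of the means was the opposite, with KO at least 19.4-fold above the Het floor on a single library (adjusted p = 0.888). Without that library, KO replicate 1, both groups are at 0, and without Het replicate 3 the bound is 5.02. The difference between the KO effects at these stages had an adjusted p of 0.833, and 25 of 495 genes had an unadjusted p under 0.05.

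NCOA2 is a nuclear receptor coactivator of the p160 family. Ncoa2 (ENSMUSG00000005886, chromosome 1, 13139105 to 13374227) had 2 and 7 counts in M2 Het, 0 and 8 in M2 KO, 2, 1 and 0 in PN5 Het, and 2, 6 and 3 in PN5 KO. Early 2-cell libraries had 16, 0 and 7 counts in Het and none in either KO library. The 16 counts, in the shallowest library, make 1.51% (interval 0.866% to 2.44%). Elsewhere its share was at most 0.0898%, which is early 2-cell Het replicate 3.

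In PN5 zygotes all 3 KO libraries lay above all 3 Het libraries for Ncoa2 (0.00750% to 0.0508% against 0 to 0.00542%), as for 3.43% of tested genes, with 11 against 3 counts and an adjusted p of 1 by edgeR. In Het the PN5 libraries lay below both M2 libraries (10.3% of tested genes). PN5 Het replicate 3, at 0 of 8614 counts, bears on both positions. That count allows up to 0.0348%, more than 2 of the 3 PN5 KO shares and both M2 Het shares. The early 2-cell Het mean of 0.534 ± 0.848% (n = 3) lay above PN5 Het at 0.00281 ± 0.00271% (n = 3, 3 counts in all), with an adjusted p of 0.209 by edgeR. DESeq2's Wald test passed this one at 0.00562, and over all alternatives it ran from there to 1. Without Het replicate 1 the early 2-cell Het mean is 0.0449%. In KO both early 2-cell libraries, at 0, lay below all 3 PN5 libraries (9.7% of tested genes), with 11 counts in PN5 zygotes and none in early 2-cell embryos, whose floor of 0.109% lies above the PN5 KO mean of 0.0238%. The paralogs Ncoa1 and Ncoa3 were at 0 in all libraries.

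**Figure D2:**
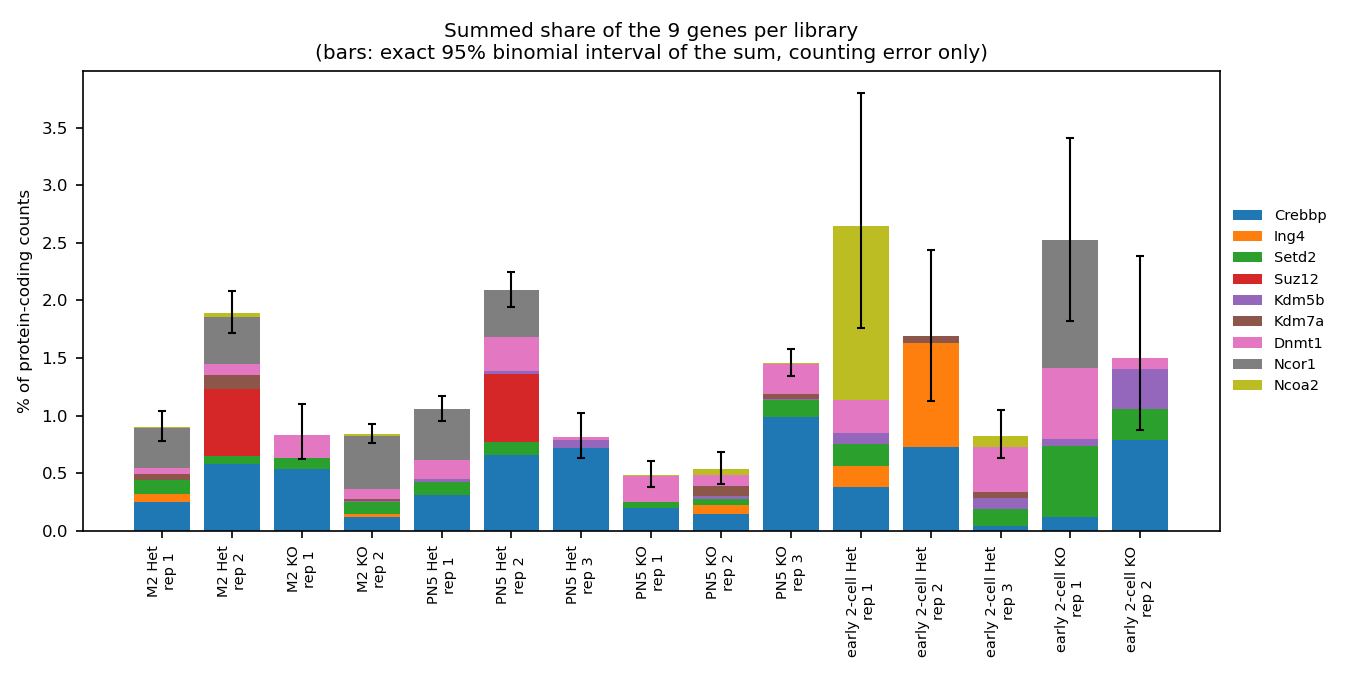
Summed share of the 9 genes in each library (%, vertical axis), stacked by gene; error bars are exact 95% binomial intervals of the sum and cover counting error only. The sum runs from 0.487% in PN5 KO replicate 1 to 2.64% in early 2-cell Het replicate 1, and different genes lead in different libraries.

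Summed over the 9 genes the share ran from 0.487% in PN5 KO replicate 1 to 2.64% in early 2-cell Het replicate 1, with a median of 1.06%. In eggs the mean was 1.40 ± 0.698% for Het and 0.839 ± 0.00718% for KO (n = 2 each). In zygotes it was 1.32 ± 0.678% and 0.826 ± 0.547% (n = 3 each). Early 2-cell embryos had 1.72 ± 0.912% in Het (n = 3) and 2.01 ± 0.728% in KO (n = 2). In M2 eggs both KO libraries (0.834% and 0.844%) lay below both Het libraries (0.904% and 1.89%), a position held by 11.9% of single tested genes. The interval of Het replicate 1, 0.780% to 1.04%, overlapped those of both KO libraries, 0.619% to 1.10% and 0.764% to 0.930%. The genotypes overlapped at the other stages.

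Part of the higher means of M2 and PN5 Het lay in Suz12 and Ncor1. These were picked after being seen higher in Het, so leaving them out had to shrink the difference. Without these 2 genes the means were 0.724 ± 0.240% in M2 Het and 0.606 ± 0.323% in M2 KO, and 0.843 ± 0.240% in PN5 Het and 0.826 ± 0.547% in PN5 KO. The M2 groups then overlapped, with 0.555% to 0.894% in Het and 0.378% to 0.834% in KO. The leading gene changed from library to library. Crebbp led in 6 of the 15 libraries, Ncor1 in 4, Dnmt1 in 2, and Suz12, Ncoa2 and Ing4 in 1 each. Between 3 and 8 of the 9 genes had a count in a library, with 8 in M2 KO replicate 2, the deepest, and 3 in M2 KO replicate 1, PN5 Het replicate 3 and early 2-cell Het replicate 2.

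In the edgeR fit all 9 genes passed the filter on low counts and entered the 495 tested genes. No gene was called at an adjusted p under 0.05 in any of the 7 comparisons, so 0% of tested genes and none of the 9 passed. For KO against Het, 6 genes had an unadjusted p under 0.05 at the M2 stage, 35 at PN5 and 25 at the early 2-cell stage. There were 17 and 97 for the steps from M2 to PN5 and on to early 2-cell in Het, and 21 and 43 for the same steps in KO. These comparisons share groups, so their values are not independent. Apart from the positions given above, the shares of the 9 genes overlapped in every comparison. Over all tested genes, KO lay above Het without overlap for 12.1% in M2 eggs, 3.43% in zygotes and 7.88% in early 2-cell embryos, and below for 11.9%, 3.03% and 3.84%. Zygotes lay above eggs for 7.47% in Het and 4.24% in KO, and below for 10.3% and 3.43%. Early 2-cell embryos lay above zygotes for 6.67% in Het and 14.5% in KO, and below for 9.49% and 9.7%.

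For KO against Het in M2 eggs, 2 of the 9 fold changes were above 0 and 7 below, with a median log2 value of -0.79 beside -0.02 over all tested genes. In PN5 zygotes 5 were above and 4 below (median 0.12 beside 0), and in early 2-cell embryos 4 and 4, with Suz12 at 0 counts in both groups (median 0 beside 0). From PN5 zygotes to early 2-cell embryos the median of all tested genes was itself -1.90 in Het and -1.60 in KO. The 9 genes had medians of -0.79 and -0.74 there. Over M2 to PN5 their medians were -0.43 in Het beside 0.10 for all genes, and 0.56 in KO beside 0.13.

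**Figure D3:**
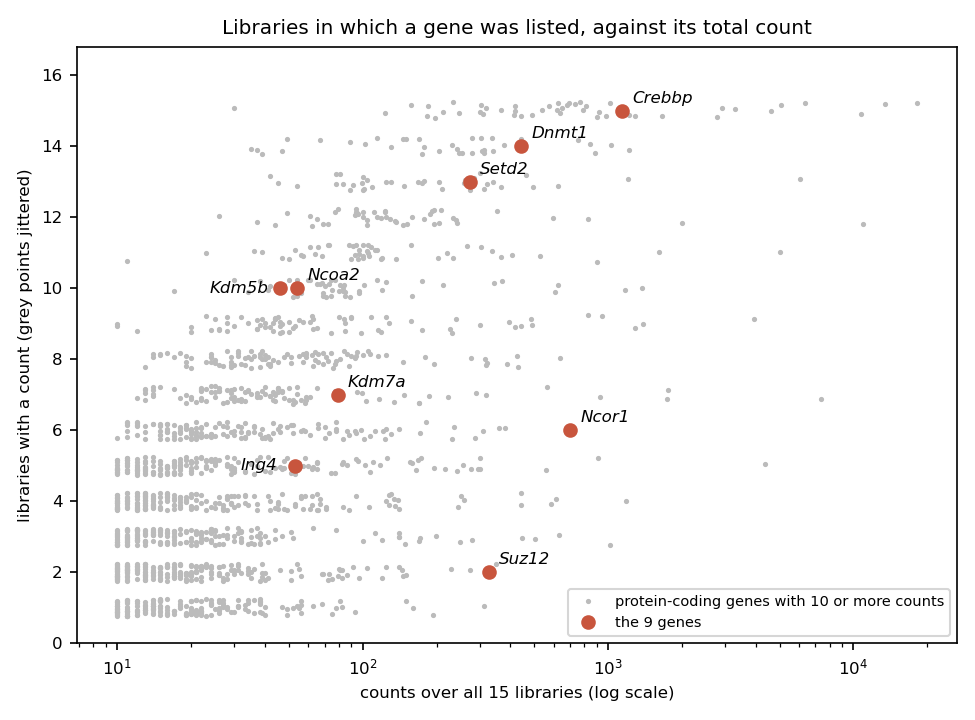
Libraries in which a gene had a count (of 15, vertical axis, grey points jittered) against its counts over all libraries (horizontal log axis), for the 1671 protein-coding genes with 10 counts or more; the 9 genes are red. Suz12 (2 libraries) and Ncor1 (6) lie low for their totals, and Crebbp (15), Dnmt1 (14) and Setd2 (13) lie near the top.

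How evenly a gene was spread over libraries was set beside genes of like total. At its overall share, counting error alone would put Ncor1 in 14.9 libraries, Kdm7a in 12.02 and Ing4 in 11.2, against 6, 7 and 5 in the table. For Kdm5b and Ncoa2 the expected 10.8 and 11.2 lie close to the 10 found for both. Of genes of like total, 12.9% were listed in fewer libraries than Ncor1, 75.8% in fewer than Kdm7a and 54.3% in fewer than Ing4. The median gene with at least 10 and under 100 counts was listed in 4 libraries, so Kdm7a and Ing4 were not unusual in this. The index of dispersion, the variance of counts over what counting alone gives, was 39.1 for Crebbp, 31.3 for Ncor1, 11.03 for Dnmt1 and 5.22 for Setd2. The median was 45.7 over the 70 genes with at least 500 counts and 12.8 over the 241 with at least 100 and under 500. Suz12 had 84.4, above 95.9% of the 241, and Ncoa2 and Ing4 had 82.6 and 51.6, above 98.9% and 97.5% of the 1360 genes with at least 10 and under 100 counts. Those values of Ncoa2 and Ing4 lean on 1 shallow early 2-cell Het library each. Ncoa2 had 16 of 1059 counts in replicate 1, and Ing4 had 15 of 1655 in replicate 2. Kdm5b and Kdm7a had 9.33 and 8.17, above 74.2% and 70.3% of the 1360 genes, whose median was 5.03.

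The genes with the most similar course over the 15 libraries were looked up among the 425 tested protein-coding genes for the 3 members listed in at least 12 libraries. Nearest to Crebbp by Spearman's rho of the shares were Zbtb18 (0.74), Akap12 (0.72) and Smarca2 (0.67). Nearest to Dnmt1 were Clspn (0.69), Cecr2 (0.65) and Dkc1 (0.60), and nearest to Setd2 were Cecr2 (0.85), Ep400 (0.76) and Swt1 (0.75). These are the highest of many values over libraries that share depth and stage, and are given as a description.

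**Figure D4:**
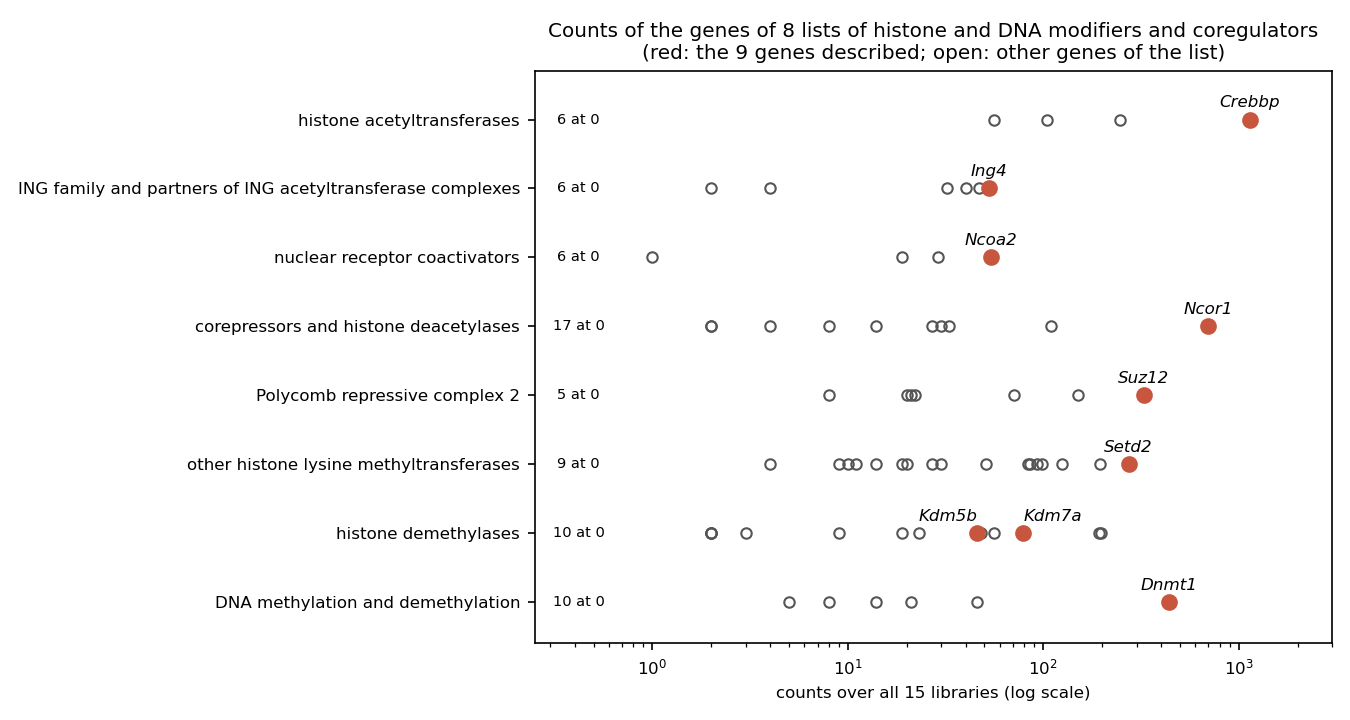
Counts over all 15 libraries (horizontal log axis) of the genes of 8 lists of chromatin modifiers and coregulators; red points are the 9 genes, open points the other genes of a list, and the number of genes at 0 is printed at the left. Crebbp, Ing4, Ncoa2, Ncor1, Suz12, Setd2 and Dnmt1 have the most counts of their lists, and Kdm5b and Kdm7a do not.

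Each gene was set among its functional relatives, in 8 lists chosen with earlier results known. Of all 21447 protein-coding genes 3795 had a count in any library, so a list gene at 0 is the common case. Of 10 histone acetyltransferases 4 had a count. Crebbp had 1141, Kat6a 248 in all 15 libraries, the Crebbp paralog Ep300 105 in 11 and Kat6b 56 in 2, while Kat2a, Kat2b, Kat5, Kat7, Kat8 and Hat1 were at 0. Of 12 ING genes and partners 6 had a count, with Ing2 at 47 and Ing1 at 40 beside Ing4. Of 26 lysine methyltransferases other than Polycomb 17 had a count. Setd2 was followed by Setd5 (196), Kmt2a (124), Kmt2e (99) and Kmt2c (93). Of 23 demethylases 13 had a count, and Jmjd1c (197, in all 15 libraries) and the lysine 4 demethylase Kdm1a (192, in 12) had more than Kdm7a or Kdm5b. Of 27 corepressors and deacetylases 10 had a count. Sin3a had 110, and the class I deacetylases Hdac1, Hdac2, Hdac3 and Hdac8 were at 0. Counts were present for 7 of 12 genes of Polycomb repressive complex 2, 4 of 10 nuclear receptor coactivators and 6 of 16 genes of DNA methylation.

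Of the genes on these lists 19 were tested, the 9 and 10 others, and none passed in any of the 7 comparisons. The smallest adjusted p among the 10 others was 0.300, for early 2-cell against PN5 in Het. For KO against Het, 2 of the 10 were above 0 and 7 below at M2, 4 and 6 at PN5, and 2 and 5 at the early 2-cell stage. Brd1 at M2 and Sin3a, Kmt2a and Nsd3 at the early 2-cell stage had a difference of 0. The medians of the 10 were -1.25, -0.69 and -0.35 on the log2 scale, beside -0.02, 0 and 0 over all tested genes.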

How the data were processed

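Per the submitters' processing notes, reads were handled with STAR 2.7.6a, StringTie 2.1.4, cutadapt and deepTools 3.5.1 on GRCm38. The authors deposited estimated counts per gene as unscaled whole numbers in a single table of 15 libraries (22 PCR cycles each), used here as rounded. How multi-mapping reads were treated is stated nowhere in these sources. Biotypes and coordinates came from RefSeq's GRCm38.p6 annotation (39101 genes matched by symbol, 164 by an older symbol). The other 16225 genes were unmatched and held 59.1% to 92.1% of a library's counts. They have no biotype here and are not part of the protein-coding counts.

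The members, lists and tests were chosen with earlier results of these data known. Named genes are the 9 members, Eif4e1b, list genes with 10 counts or more, and the 3 nearest patterns for each member listed in at least 12 libraries. List genes at 0, marker genes and Actb were chosen after their values were seen. Genes passing filterByExpr (minimum count 10) were fitted as 6 group means in edgeR 4.0.16 (R 4.3.3) with TMM factors and the quasi-likelihood test, with Benjamini-Hochberg adjustment over 495 genes at 0.05. SEs were worked back from the fit's F statistic. The fit was also run on simulated counts with a fixed dispersion not estimated from these libraries. That run cannot show how the fit does at their spread. Bounds use 3 counts over a group. Intervals are Clopper-Pearson at 95%. Alternatives were DESeq2 1.42.0, limma-voom 3.58.1, other scalings, no filter, protein-coding genes only, a replicate block, and leaving out each library with the same 495 genes.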

Additional observations from a re-analysis of the deposited data

How the results depend on the processing

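With DESeq2's Wald test 2, 2 and 4 genes were called for KO against Het in eggs, zygotes and early 2-cell embryos. The same test called 4 and 1 for zygotes against eggs in Het and KO, and 49 and 14 for early 2-cell embryos against zygotes. Only Ncoa2, among the 49, is one of the 9 genes. In early 2-cell Het embryos against zygotes limma-voom called 11. Without the filter on low counts, which raises the genes tested to 5763, 1 gene was called between the genotypes of early 2-cell embryos, and 3 in Het and 1 in KO for early 2-cell embryos against zygotes. Leaving out 1 library at a time gave 0 to 1 calls between the genotypes of early 2-cell embryos and for early 2-cell embryos against zygotes in Het, both times Top1 without Het replicate 2, and 0 in the other 5 comparisons. The cause of these differences between tests was not tested. With protein-coding genes only, DESeq2 size factors or library totals, 0 were called throughout.

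The replicate block gave 0 calls in all 7 comparisons. The numbers were not shown to pair the libraries, since same-numbered Het and KO libraries had correlations of their deviations of -0.15 in M2, -0.15, -0.32 and 0.10 in PN5 and -0.04 and 0.03 in early 2-cell embryos. With the numbers of the M2 KO libraries exchanged, chosen after seeing this, the block also gave 0 calls. The log2 ratio of the summed share, KO over Het, was -0.74 in M2, -0.68 in PN5 and 0.23 in early 2-cell embryos. It ran from -1.17 to -0.11, from -1.37 to -0.18 and from -0.20 to 0.68 when 1 library was left out. As a share of all counts it was -0.78, -0.25 and 0.10. Without Suz12 and Ncor1, chosen after seeing the data, it was -0.26, -0.03 and -0.24. Of the log2 differences of the 9 genes, none of which edgeR called, 22 of 504 moved by more than 1 SD and 36 changed sign under the alternatives that keep all libraries. When 1 library was left out, 29 and 36 of 945 did. The SD here is edgeR's SE divided by the root of the summed inverse group sizes. It is wide where the SE is wide, and 0 where a gene had no counts in either group. Depth limits what early 2-cell libraries can show, where many values of the 9 genes are 0 and none rests on more than 31 counts.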

Other observations

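Few genes share the pattern of libraries in which Suz12, Ncor1, Ing4 or Kdm7a had counts. Among the 1671 protein-coding genes with 10 counts or more, 2 were listed in exactly the libraries of Suz12, namely the acetyltransferase gene Kat6b with 56 counts and the oocyte gene Zar1 with 11. Rab5a was the only one to share the 6 libraries of Ncor1, Atp5c1 the only one to share the 5 of Ing4, and none shared the 7 of Kdm7a. These genes were picked after their values were seen, and the cause of the shared pattern was not tested.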
